A study of Homo sapiens with 5 samples.

Results

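A run of consecutive genes on the distal short arm of chromosome 1 carried less nascent transcription in one of 2 engineered human cell lines than in the other, and it did so at nearly the same ratio from its first rows to its last. The run is rows 7 to 393 of the deposited gene table. It begins with ENSG00000187634, which is SAMD11, a gene for a protein with a sterile alpha motif domain. Members are the rows with a gene identifier and 15 or more counts summed over the 5 libraries, which gave 272 genes of the 20001 with an identifier. The rows were chosen from an earlier look at the same CAG over PGK comparison in the same 5 libraries, so that comparison describes the block and tests nothing about it.

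PRO-seq, a precision run-on assay, lets RNA polymerases already engaged on genes extend their transcripts with biotin-tagged nucleotides, so the captured reads report transcription in progress. The cells were HEK293T, a human line of embryonic kidney origin with the SV40 large T antigen, grown in DMEM with serum and antibiotics and given no other treatment that the labels name. Per the labels, all were monoclonal and carried a landing pad, an engineered locus into which DNA can be placed, with the PGK promoter in 2 libraries and the CAG promoter in 3 libraries. PGK is a housekeeping promoter from a glycolysis gene, and CAG is a strong synthetic promoter. A monoclonal line descends from a single cell, and the labels do not give the number of clones, so promoter and clone cannot be told apart. Whether replicates were separate cultures is not stated, so the spreads given may be technical.

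The distal short arm of chromosome 1 is gene-dense and is known for deletions in a developmental syndrome and in several tumours. HEK293 derivatives are aneuploid, which is background on the cell line: the table holds nascent RNA only, and DNA was not assayed in it. Most genes are transcribed from their own promoters by RNA polymerase II, so neighbours in a block this long usually differ widely in level. In bulk libraries such as these, a lower level in fewer cells and a lower level in every cell cannot be told apart.

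Identifiers and gene names are not paired in the table or in the reference used here. SAMD11 is named because the definition of the block names it, and other genes are given by row number, with an identifier for 4 of them. The placement on chromosome 1 rests on that definition and the row order, and it was not checked against an annotation. Cell type markers, lists of genes by function and promoter sequences, which need names, were not analysed here. The libraries held 3712105 to 5864157 counts, the fewest in PGK replicate 2.

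Every row of the block had an identifier, and the minimum of 15 counts divided the rows. Beside the 272 members, 115 rows stayed under the minimum of 15 counts, 53 of them with no count in any library and 62 with a few. The rows under the minimum clustered in places, and their longest unbroken run was the 17 rows from row 184 to row 200. At the minimum itself, 3 members had exactly 15 counts and the nearest row left out had 13. Of the 272 members, 244 had enough counts for edgeR's filter on low values and entered the fit across 13400 genes. The other 28 members had 15 to 36 counts each, with a median of 22.

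As a share of everything counted, the block took less of each CAG library than of each PGK library. The members held 1.88% of counts in PGK replicate 1 and 1.77% in PGK replicate 2. They held between 1.19% and 1.23% in the 3 CAG libraries. The libraries of the lines did not overlap, and the shares averaged 1.82% ± 0.0736 (SD, n = 2) for PGK and 1.21% ± 0.0179 (SD, n = 3) for CAG. The CAG share was thus 0.662 of the PGK share. These shares need no scaling between libraries, and they count all 272 members, tested or not.

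The counts were spread over many genes. The 38 members with the most counts held 50% of the block's total, and the 10 with the highest mean CPM (a count divided by the scaled size of its library, with no correction for gene length) held 24.3%. The member with the most counts, in row 288, stood at 1205 and 1336 CPM in the PGK libraries and at 778, 746 and 788 CPM in the CAG libraries. Without it the CAG share of the block was 0.665 of the PGK share, so the ratio did not rest on that gene. The member with the next highest level, in row 220, stood at 605 and 684 CPM in the PGK libraries and at 449, 433 and 445 CPM in the CAG libraries. Row 149 gave 319 and 322 CPM in the PGK line against 180, 182 and 199 CPM in the CAG line. All 10 of these highest members were lower in each CAG library than in each PGK library, with log2 fold changes (CAG over PGK) from -0.78 to -0.43. The same held for 86.1% of the 244 tested members and for 30.4% of all tested genes.

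**Figure D1:**
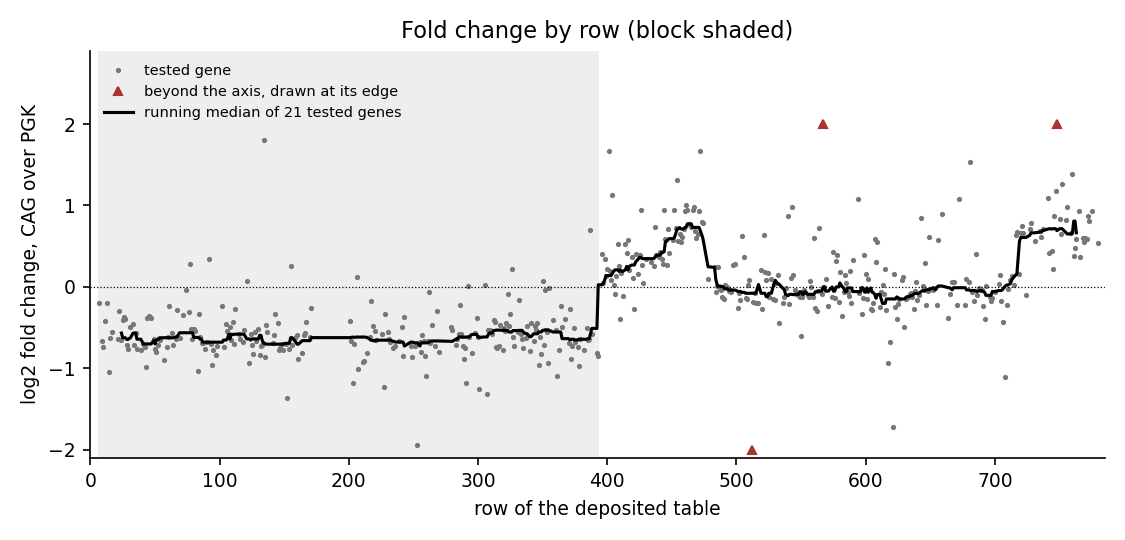
Log2 fold change (CAG over PGK, vertical axis) of each tested gene against its row in the deposited table (horizontal axis), rows 1 to 780, with rows 7 to 393 shaded and a running median over 21 tested genes as a line. Triangles are genes beyond the drawn range. The line runs near the block's median of -0.63 within the shaded rows and changes level at row 393. Beyond that row the line climbs to 0.77 at row 463 and falls to 0.03 at row 485. It then runs at or near 0 before it rises again.

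Gene by gene, the typical member was transcribed at 0.648 of its PGK level in the CAG line. The median log2 fold change over the 244 tested members was -0.63, and the middle of the distribution was narrow, with quartiles at -0.74 and -0.47. Over the 13156 tested genes outside the block the median was 0.00, with quartiles at -0.20 and 0.31. Of the tested members, 233 lay under 0, against 50.6% of all tested genes. At an edgeR adjusted p under 0.05, 195 of the 244 were called lower in the CAG line, where 20.7% of all 13400 tested genes were called lower. A single member was called higher, where 22.7% of all tested genes were. In either direction, 43.4% of all tested genes were called. These counts describe the choice of rows and are not evidence for it. Testing was also restricted to members with enough counts, so the counts do not speak for all 272.

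The reduction was moderate in size for nearly all members. Of the 244, 138 lay at least 1.5-fold lower and 12 at least 2-fold lower in the CAG line. Of the 13156 tested genes outside, 770 and 250 did. Within 0.3 (log2) of the block's median lay 194 members (79.5%), while 57.7% of the genes outside lay that close to their own median. The interquartile range was 0.27 in the block and 0.51 outside, and the SD 0.33 against 0.67. Members had somewhat fewer counts than other genes, with a median of 37.9 CPM against 47.8 CPM, and the median dispersion edgeR estimated between replicates was 0.00297 against 0.00294. The SD of the difference between the PGK replicates was smaller in the block, at 0.27 against 0.33 outside. In each CAG pair it was slightly larger in the block, at 0.24 against 0.22 to 0.23 outside. The part of these values in the narrower spread was not tested. A block found by a common level is chosen in part for such narrowness.

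**Figure D2:**
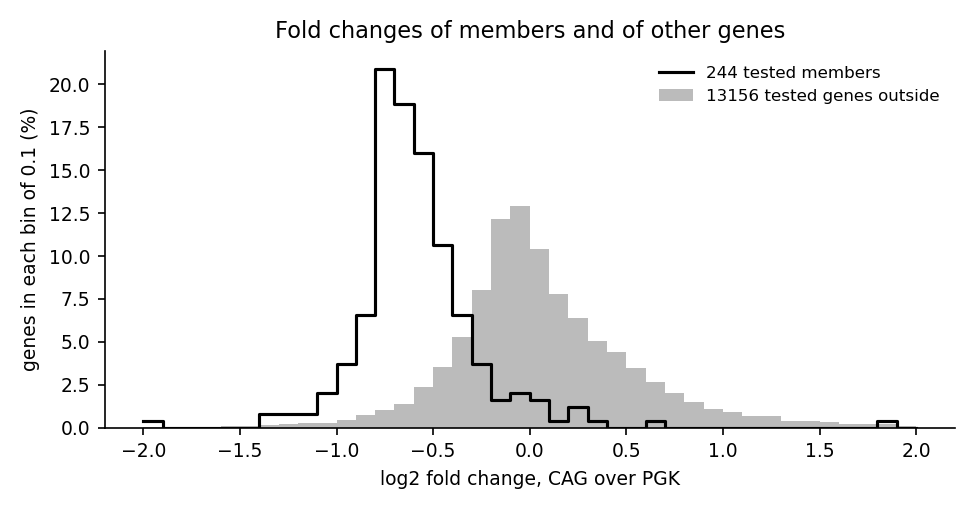
Percent of genes (vertical axis) in bins of 0.1 of the log2 fold change (CAG over PGK, horizontal axis), for the 244 tested members (line) and the 13156 tested genes outside the block (bars). The members pile up around -0.63 and the other genes around 0; 1.58% of the other genes lie beyond the drawn range.

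The same comparison was also described library by library. Relative to the mean of the 5 libraries, the median member stood at 0.40 and 0.34 (log2) in the PGK libraries and at -0.25, -0.20 and -0.26 in the CAG libraries. The line means were 0.37 ± 0.039 (SD, n = 2) and -0.24 ± 0.031 (SD, n = 3), and the libraries of the lines did not overlap. Over the genes outside the block, no library stood further than 0.01 from the mean. The libraries were scaled over all tested genes, most of them outside the block, which holds that median near 0. Taken in pairs, the median difference of a CAG from a PGK library ran from -0.66 to -0.55 in the 6 pairs, and between 218 and 235 of the 244 members were lower. Both smallest values belonged to CAG replicate 2 against PGK replicate 2. Of the genes outside the block, 48.3% to 49.7% were lower in these pairs. The pairs share libraries and reuse the values that chose the block.

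Differences between replicates of a line do not enter the choice of the block in the same way, and they were small. The difference of PGK replicate 2 from PGK replicate 1 was -0.07 in the median member and 0.01 in the median gene outside. In the CAG line the medians differed by 0.05 (replicate 2 over replicate 1), -0.01 (replicate 3 over replicate 1) and -0.05 (replicate 3 over replicate 2). The median member of the block thus moved more between replicates than the median gene outside, where the CAG differences were all under 0.01 in size. The scaling of the libraries holds the median gene outside near 0. Each difference of the median member between replicates was small beside the difference of -0.61 between the line means. For single members the SD of the difference between replicates was 0.27 in the PGK pair and 0.24 in each CAG pair. For genes outside it was 0.33 in the PGK pair and 0.22 to 0.23 in the CAG pairs.

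**Figure D3:**
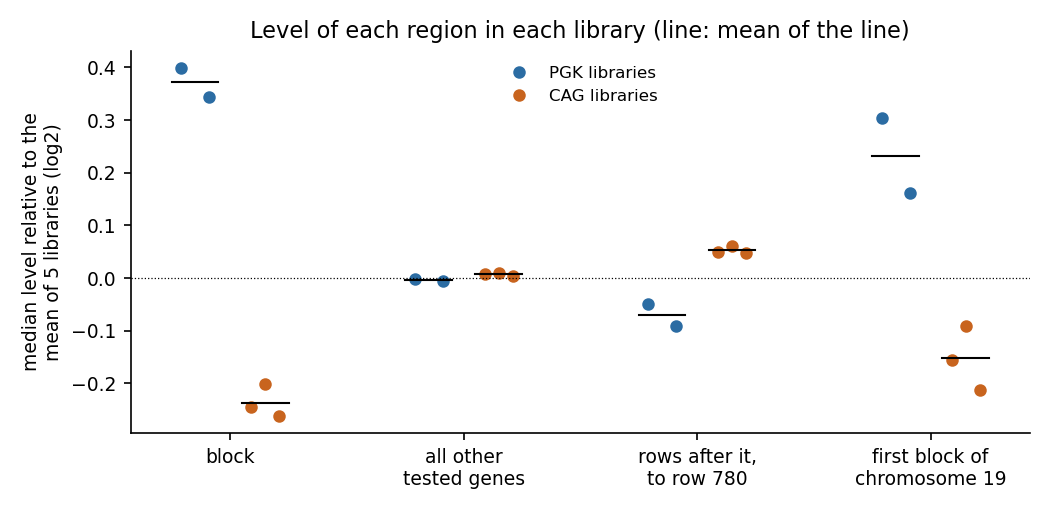
Median level of 4 sets of tested genes in each library, relative to the mean of the 5 libraries (log2, vertical axis); points are libraries and short lines are the means of the PGK and CAG lines. In the block the PGK libraries stand at 0.34 and 0.40 and the CAG libraries between -0.26 and -0.20. The median of all other tested genes, which the scaling holds near 0, lies within 0.01 of 0.

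The level was flat along the block. Divided into 8 consecutive parts of 30 or 31 tested members, the median log2 fold change lay between -0.69 (rows 137 to 212) and -0.57 (rows 314 to 349). From the start to the end of the block the medians were -0.62, -0.63, -0.64, -0.69, -0.67, -0.58, -0.57 and -0.64. These neighbouring medians differ by less than the interquartile range within any part. In each of the 8 parts, both PGK libraries lay above all 3 CAG libraries. The PGK replicates were furthest apart in the first part (rows 7 to 50), at 0.46 and 0.24, and nearly level in the last, at 0.39 and 0.38.

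Within the block, the deviations of neighbours were little correlated. Once the block's median was taken away, the deviations of adjacent tested members had a Pearson correlation of -0.05 over 243 pairs. Among tested genes outside the block, the fold changes of adjacent genes correlated at 0.23 over 13155 pairs. Outside, no regional level was taken away, and the block was chosen for a common level, so the correlations are not directly comparable. Genes are not independent replicates and all share the same 5 libraries, so these are descriptions. Some members that stood apart from the block's level, described further on, were nonetheless adjacent. Of the 48 such members, 11 pairs were neighbours among the tested members, 2 of them pairs above the level and 3 below it, and the rest with 1 member on either side. The 2 pairs above formed a run over rows 74, 76 and 77, and the 3 below a run over rows 207, 211, 212 and 214.

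The far edge of the block was abrupt. The last member, in row 393, had PGK counts of 299 and 195 and CAG counts of 124, 156 and 192, a log2 fold change of -0.85 ± 0.11 (SE). Its neighbour in row 392 was at -0.81 ± 0.077. The next 2 rows had 2 and 31 counts and were not tested. Row 396, the first tested gene beyond, had PGK counts of 295 and 169 and CAG counts of 329, 332 and 395, a log2 fold change of 0.41 ± 0.090. Rows 397 and 398 followed at 0.05 ± 0.079 and 0.34 ± 0.071.

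The sets on either side of that edge differed as clearly. Of the last 20 tested members (rows 364 to 393), 17 lay at -0.3 or lower, with a median of -0.65. Of the first 20 tested genes beyond (rows 396 to 416), 1 did, and the median was 0.20. The change of side was seen in each library. PGK replicates stood at 0.40 and 0.38 in the last 20 members and at -0.15 and -0.21 in the first 20 genes beyond. The CAG replicates stood at -0.28, -0.20 and -0.25 before the edge and at 0.07, 0.12 and 0.09 after it. The edge was placed where these same values change, so its position is a description.

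The near edge could not be resolved. The 6 rows ahead of SAMD11 held at most 2 counts each over all libraries, and 5 of them held none, so nothing was measured between the start of the table and the first member. Among the first 20 tested members (rows 7 to 35), the median was -0.56, and all 20 lay under 0.

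SAMD11 itself was among the members that followed the block least. Its PGK counts were 762 and 443 and its CAG counts 569, 637 and 593. That is 135 and 124 CPM against 116, 126 and 101 CPM, and the lines overlapped, since CAG replicate 2 lay above PGK replicate 2. The log2 fold change was -0.19 ± 0.081 (SE), which was not called. The next tested members, in rows 9 and 10, were at the block's level, at -0.67 ± 0.095 and -0.74 ± 0.22, and their lines did not overlap.

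Across the range of levels, the median ratio was nearly constant except in the scarcest members. Divided into 4 groups of 61 by mean CPM, the median log2 fold change was -0.45 in the lowest group and -0.65, -0.64 and -0.64 in the other 3, which began at 15.5 CPM. The spread narrowed with level, from an SD of 0.55 in the lowest group to 0.25, 0.16 and 0.15. The median standard error fell likewise, from 0.25 to 0.14, 0.10 and 0.07. Above the lowest group, 181 of 183 members lay under 0. In the lowest group 52 of 61 did, against 50.6% of all tested genes. In that group 22 were called lower and 1 higher, where 20.7% and 22.7% of all tested genes were. All 91 members with at least 50 CPM were lower in the CAG line, with an SD of 0.16. The 6375 other genes at that level had an SD of 0.38, and 3740 of them were lower.

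**Figure D4:**
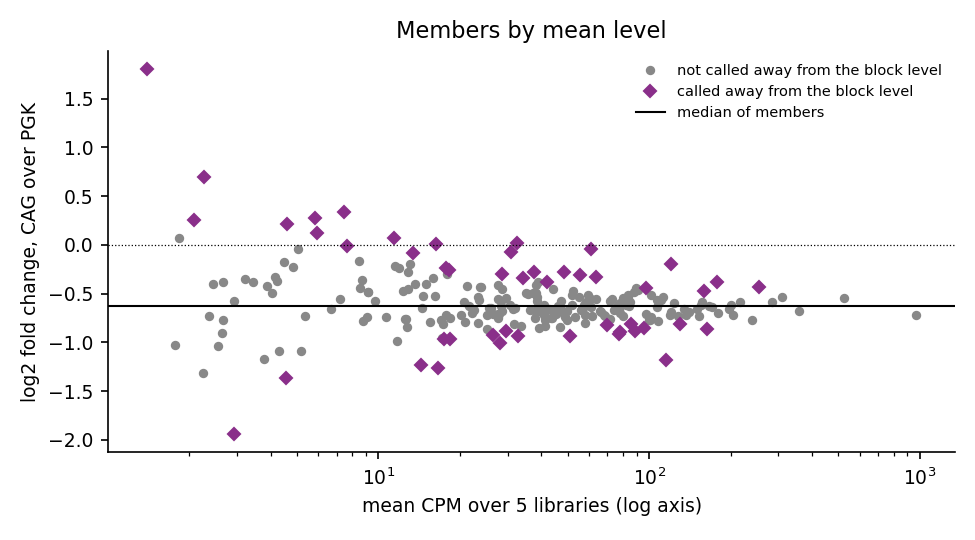
Log2 fold change (CAG over PGK, vertical axis) of the 244 tested members against their mean CPM over the 5 libraries (horizontal log axis); diamonds mark the 48 members called away from the block's level, the solid line is the median of -0.63. Points crowd around the line above 15 CPM and scatter widely below it.

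The 28 members too scarce for the fit gave a ratio that rested on few counts. Summed, their PGK counts were 179 and 81 and their CAG counts 132, 128 and 127. On the scaled library sizes this was 27.2 ± 6.38 CPM (SD, n = 2) for PGK and 24.6 ± 2.69 CPM (SD, n = 3) for CAG, a ratio of 0.903. The lines overlapped: PGK replicate 2, at 22.7 CPM, lay within the CAG range of 21.6 to 26.9 CPM. Whether that ratio differs from the block's, or from no difference, was not tested.

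In the libraries themselves, the CAG values lay entirely below the PGK values for 210 of the 244 tested members (86.1%), against 30.4% of all tested genes. For 2 members they lay entirely above, against 30.9% of all tested genes, and for 32 the lines overlapped. The members that overlapped or went the other way were mostly scarce: 27 of these 34 came from the lowest group by level.

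When the fit was recentred so that the block's median became the reference, 48 of 244 members (19.7%) were called away from it at an edgeR adjusted p under 0.05. Over all tested genes, 85.9% were called away from that level. Recentring on the members' own median moves most other genes away from the reference, so that contrast follows largely from the recentring. The other 196 members had log2 fold changes with a median of -0.64, and a call not made does not show that they share an identical ratio. Of the 48, 28 lay above the block's level and 20 below. Those above ranged from -0.47 to 1.81 with a median of -0.14, and 9 of them lay within 0.2 of no change between the lines. Those below ranged from -1.94 to -0.81 with a median of -0.93. The members called above lay from row 7 on, and those called below lay between rows 94 and 392. The best counted of the members above was in row 110, at 302 CPM in each PGK library and 224, 227 and 221 CPM in the CAG libraries, a log2 fold change of -0.43 ± 0.073.

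The members furthest below the block, among the 218 with a mean of at least 5 CPM, were ENSG00000070886 and ENSG00000142627. ENSG00000070886, in row 301, had PGK counts of 147 and 88 and CAG counts of 66, 47 and 55. It stood at 25.4 ± 0.983 CPM (SD, n = 2) for PGK and 10.7 ± 2.37 CPM (SD, n = 3) for CAG, a log2 fold change of -1.26 ± 0.17 (SE). ENSG00000142627, in row 227, had PGK counts of 137 and 68 and CAG counts of 47, 52 and 50. These gave 21.7 ± 3.69 CPM for PGK and 9.45 ± 0.893 CPM for CAG (SD, n = 2 and 3), a log2 fold change of -1.23 ± 0.18. Neither overlapped between lines, but both were picked by fold change. Entirely lower CAG values were found in 30.4% of all tested genes.

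A better-counted member also stood well below the block. The gene in row 203 had PGK counts of 1000 and 604 and CAG counts of 365, 392 and 458, at 177 and 169 CPM against 74.2, 77.5 and 77.9 CPM. Its log2 fold change was -1.18 ± 0.068. Of the 8 members lowest by this rule, all had lines that did not overlap, with log2 fold changes from -1.26 to -0.96. They were picked by that fold change, so the lack of overlap follows largely from the choice. Of all tested genes, 30.4% lay entirely lower in the CAG libraries.

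At the other end stood the 8 highest members by the same rule. Their log2 fold changes ran from -0.04 to 0.34, and the libraries of the lines overlapped in all 8. These too were picked by fold change, so the overlap is a description of the choice. The highest was ENSG00000116254, in row 92, with PGK counts of 44 and 17 and CAG counts of 38, 40 and 54. These gave 6.28 ± 2.15 CPM for PGK and 8.28 ± 0.795 CPM for CAG (SD, n = 2 and 3), a log2 fold change of 0.34 ± 0.24, and it was 0.79 without PGK replicate 1 and 0.10 without PGK replicate 2. The best counted of the 8, in row 74, stood at 69.3 and 53.8 CPM in the PGK libraries and at 61.2, 58.7 and 62.4 CPM in the CAG libraries. That gene had a log2 fold change of -0.04 ± 0.097, and its CAG libraries lay within the range of its PGK libraries. The gene in row 305 was similar, at 33.2 and 30.8 CPM against 33.0, 29.9 and 35.1 CPM.

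The single member called higher in the CAG line was ENSG00000162444, in row 134. It lay below 5 CPM and is named here after its values were seen. Its PGK counts were 4 and 1 and its CAG counts 13, 10 and 8, which is 0.709 and 0.280 CPM against 2.64, 1.98 and 1.36 CPM. The log2 fold change of 1.81 rested on these few counts: it was 2.69 without PGK replicate 1 and 1.44, no longer called, without PGK replicate 2. Without any one CAG replicate the gene did not pass the filter on low values.

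**Figure D5:**
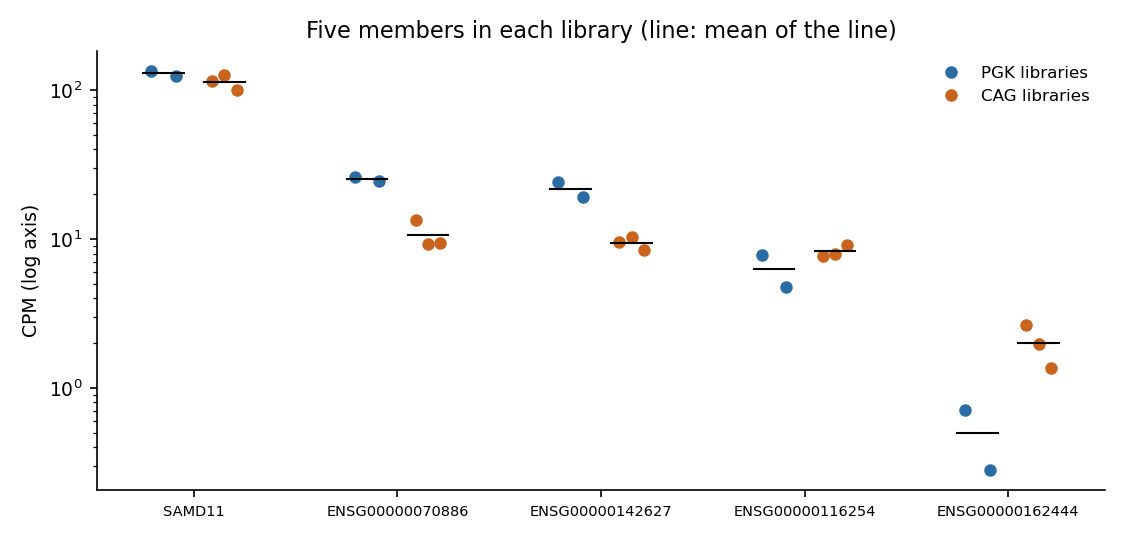
CPM (log axis) of 5 members in each library, with short lines for the line means. SAMD11 overlaps between lines, ENSG00000070886 and ENSG00000142627 lie lower in every CAG library, ENSG00000116254 overlaps and ENSG00000162444 is higher in the CAG libraries at 1.36 to 2.64 CPM.

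The rows that follow and a block on chromosome 19 that also ran lower were set beside it, and the block's median was lower and its spread narrower than in either. The equal number of rows that followed, up to row 780, held 288 tested genes with a median log2 fold change of 0.10. Their interquartile range was 0.68, and 26 of them were called lower and 100 higher. The running median over 21 tested genes was 0.77 at row 463, -0.05 at row 563 and 0.71 at row 751. The median and range of these rows thus mix several levels. In the chromosome 19 block, placed there in the same earlier look, 434 tested genes had a median of -0.42, a fold of 0.748, and an interquartile range of 0.35. Of those, 275 were called lower and 12 higher. Among the 164 with at least 50 CPM, 162 were lower in the CAG line, with an SD of 0.18. At that level the chromosome 1 block, with all 91 lower and an SD of 0.16, was thus close to it. The level of the chromosome 19 block lay further apart between replicates. PGK replicates stood there at 0.30 and 0.16 and CAG replicates at -0.16, -0.09 and -0.21, where the block had SDs of 0.039 and 0.031 and that region of 0.10 and 0.061. All these regions were chosen or bounded with the same libraries in view, so their difference was not tested.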

How the data were processed

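PRO-seq counts of 5 HEK293T libraries were used, grouped by sample title. The deposited table holds unnormalised counts for each Ensembl gene, which the authors made on hg19. The submitters' processing notes name featureCounts 2.0.3, UMI-tools, HISAT2 2.2.1, Bowtie2 2.5.1, cutadapt and fastp 0.23.2, with no role stated. For strand, annotation and the counted part of genes, the setting is not given in the sources used here, so values of overlapping genes and near-identical copies are uncertain. The 18 rows without an identifier, of 20019, were left out.

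Genes passing filterByExpr (minimum count 10, minimum total 15) were fitted with edgeR 4.0.16's quasi-likelihood F test in R 4.3.3 (TMM, no covariate). P-values were Benjamini-Hochberg adjusted over all 13400 genes, with calls under 0.05. A standard error is the size of the change divided by the root of F. Levels per library used log2 CPM with a prior count of 2. Alternatives included DESeq2 1.42.0 and limma 3.58.1.

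The members and all lists were chosen with earlier results of these data known. Named genes were the 8 highest and 8 lowest members with at least 5 CPM, the 10 with the highest mean CPM, and the first and last members; examples from functional lists were not run. Same-numbered libraries were not taken as pairs: their deviations correlated at 0.04 and -0.07.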

Additional observations from a re-analysis of the deposited data

Results flagged for a closer look

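Some counts of the block lay in rows that no comparison used. The 115 rows under the minimum of 15 counts held 298 counts over the 5 libraries: 81 and 35 for PGK, and 65, 53 and 64 for CAG. Across the whole table, 95 counts lay in the 18 rows that name no gene, and none of these rows was in the block. No library was tested for standing apart from its line, because neither line has 4 libraries.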

How the results depend on the processing

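The block's median log2 fold change of -0.63 ran from -0.65 to -0.60 under 16 alternatives, of which leaving out 1 library gave -0.65 to -0.61, and moved by less than the spread between replicates in each. The count of 195 members called lower was 165 to 205 with 1 library left out and 60 when glmTreat tested against a log2 fold change of 0.5, a stricter question. With the replicate block it was 182, of which 181 were the same genes. The single member called higher became 0 under DESeq2, glmTreat or a minimum of 1 CPM in every library and 2 with no filter, and with 1 library left out the count was 0 to 1. The 48 members called away from the block's level became 36 to 59. The difference in share of counts, -0.617 percentage points, was -0.669 to -0.565 with 1 library left out and -0.570 without the member with most counts, an alternative chosen after seeing the data like those without the scarcest members or the ends of the block. ENSG00000142627 moved to -1.03 without PGK replicate 1. A PGK library left alone was taken to have the spread of the CAG libraries. Depth limits the scarce members, with a median standard error of 0.25 (log2) in the lowest of 4 groups by level.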
